A study of Arabidopsis thaliana with 9 samples.

Results

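The genes described here belong to 3 enzyme families of plant detoxification and specialized metabolism: cytochromes P450 (CYP), glutathione transferases (GST) and UDP-dependent glycosyltransferases (UGT). They were taken by symbol, as every tested gene whose symbol began with CYP, 2 or 3 digits and a letter, with GSTU, GSTF, GSTL, GSTT or GSTZ, or with UGT and digits. This gave 90 of 16550 tested genes, namely 25 P450s, 14 glutathione transferases and 51 glycosyltransferases. Of the P450s, 21 were of the CYP71B group and 4 were others (CYP78A9, CYP79A2, CYP79C2 and CYP84A4). The glutathione transferases comprised 11 of the tau class (GSTU), 2 of the phi class (GSTF) and 1 of the lambda class (GSTL3), and no theta or zeta member. The RefSeq gene table lists 341 genes whose symbols meet the same rule, with 236 P450s, 47 glutathione transferases and 58 glycosyltransferases among them, so that the P450s measured here are mostly CYP71B genes and do not stand for their family. The other genes were not analysed here.

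Expression was measured with 1 Affymetrix array per sample in total RNA of leaves cut from Arabidopsis thaliana plants of ecotype Col-0, aged 30 days. BrvC, a brevicompanine (a class of fungal alkaloids), was given at 50 µM in liquid medium for 6 h (3 arrays) or 48 h (3 arrays), and control leaves received 0.05% DMSO (3 arrays). All leaves were kept in the dark after detachment, each sample pooled 10 to 15 leaves, and the labels call the replicates biological. The labels give no time in the dark for the controls, so that BrvC and the length of the dark incubation cannot be told apart in either comparison with control.

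P450s are membrane-bound heme enzymes that insert oxygen into small molecules, and the CYP71B group is one of the expanded plant P450 groups, with members in indole metabolism and many whose substrates are not known. Glutathione transferases couple the tripeptide glutathione to reactive compounds or reduce peroxides and oxidized thiols, and the tau class, found in plants, is the class most linked to the response to herbicides and other foreign chemicals. UGTs move a sugar, mostly glucose, from a UDP-sugar to hormones, flavonoids, phenylpropanoids and foreign compounds, which makes them more soluble and ready for storage in the vacuole. In the usual scheme of detoxification, P450s activate a compound, glutathione transferases and UGTs conjugate it, and transporters remove the product from the cytosol.

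Values are log2 signals per probe set, on which a difference of 1 is a 2-fold change. Arrays within a group correlated at 0.989 to 0.993 (6 h), 0.986 to 0.989 (48 h) and 0.978 to 0.984 (control) over the tested genes, and no 2 columns were identical. Of 20 names in a list of photosynthetic leaf genes 7 were measured, and the median over them was 6.93 to 7.28 at 6 h, 6.76 to 7.29 at 48 h and 8.2 to 8.85 in control. All 7 of them were lower at 48 h than in control (5.22% of all tested genes were). At 6 h 3 were lower (13.2% of all tested genes) and 1 was higher (14.2% of all tested genes). Gene by gene, the median difference of these 7 from control was -0.28 at 6 h and -1.48 at 48 h. Among lists for other tissues, 1 of 9 guard cell names was measured (FMA, a guard cell transcription factor, 1.2, SE 0.17 at 6 h and 0.62, SE 0.17 at 48 h, past the test both times), with 1 of 10 root names (PYK10), 1 of 6 trichome names (TRY), 2 of 8 pollen or flower names (AGL18 and VGD1) and none of 12 vascular names. PYK10, TRY, AGL18 and VGD1 did not pass the test against control. Of 15 names for senescence and darkness, SAG29 was lower at 6 h (-0.63, SE 0.20) and SAG101 passed neither test. In whole leaves, fewer cells of a type and less RNA per cell cannot be told apart, and the part of these shifts in the results below was not tested.

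By family, the P450s past the test at 6 h were all lower, and UGTs past it were split between higher and lower. At 6 h 27 of 90 members changed (30.0%, against 27.4% of all tested genes), of which 7 were higher (14.2% of all genes) and 20 lower (13.2% of all genes). These calls came from limma with Benjamini-Hochberg adjustment over all 16550 genes at 0.05. Among these, 0 P450s rose and 11 of 25 fell, 1 glutathione transferase rose and 2 of 14 fell, and 6 UGTs rose and 7 of 51 fell. At least 2-fold higher were 4 members (7.52% of all genes), and at least 2-fold lower were 12 (6.08% of all genes). The median log2 fold change was -0.62 for P450s, -0.75 for the CYP71B group, -0.18 for glutathione transferases and -0.13 for UGTs, beside -0.10 over all genes. At 48 h 16 members differed from control (17.8%, against 10.6% of all genes), 8 of them higher (5.43% of all genes) and 8 lower (5.22% of all genes). At least 2-fold higher were 4 (2.27% of all genes) and at least 2-fold lower 2 (2.62% of all genes). Per family, 2 P450s rose and 5 fell, 2 glutathione transferases rose and 2 fell, and 4 UGTs rose and 1 fell. The medians then lay at -0.22 for P450s, -0.03 for CYP71B, 0.31 for glutathione transferases and 0.03 for UGTs, beside -0.06 over all genes. Whether the families differ from each other or from other genes was not tested. The counts at 48 h depended on single arrays. The 8 higher members became 5 without 48 h replicate 1, without 48 h replicate 2 or without control replicate 2, and the 8 lower members became 2 without 48 h replicate 2, 5 without 48 h replicate 3 and 4 without control replicate 2.

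**Figure D1:**
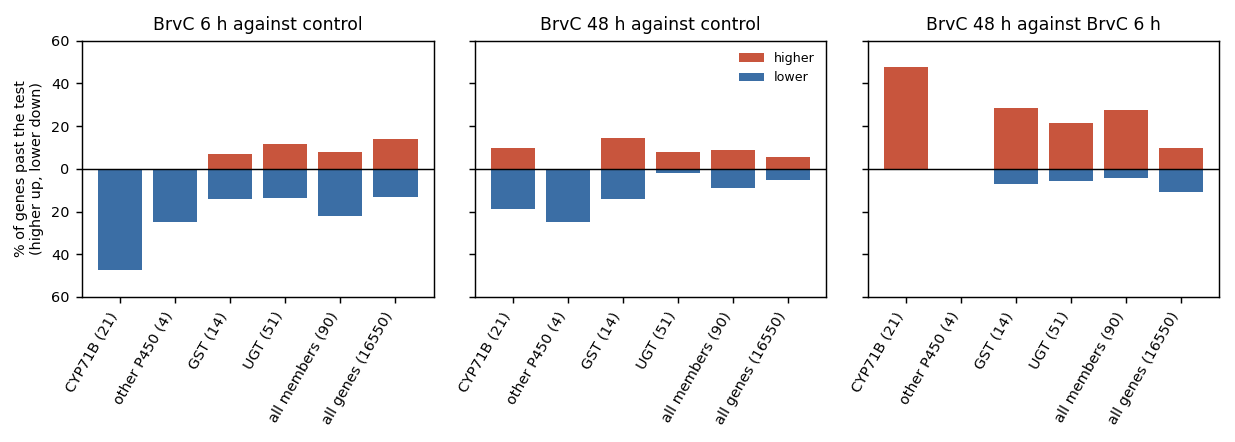
Share of each family past the limma test in each comparison, with higher genes drawn upward and lower genes downward, in percent of the genes in brackets; the last bar of each panel is the share over all tested genes. The CYP71B bar points down at 6 h (10 of 21 lower, 0 higher) and up at 48 h against 6 h (10 of 21 higher, 0 lower).

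After 6 h with BrvC 10 of 21 CYP71B genes fell (47.6%, against 13.2% of all genes) and 0 rose (14.2% of all genes). A difference below 0 was seen in 19 of 21, against 59.7% of all genes. Of the 10, 8 fell at least 2-fold (6.08% of all genes). CYP71B20 had log2 signals of 2.67, 2.6 and 2.1 at 6 h, 4.81, 4.49 and 4.32 at 48 h, and 5.4, 5.28 and 5.16 in control, with no overlap between any of the groups. Its fall at 6 h was the largest of the group (log2 fold change -2.83, SE 0.20, adjusted p = 3.90e-07), and it was still below control at 48 h (-0.74, SE 0.20, adjusted p = 0.0292). CYP71B22 had 2.51, 2.73 and 2.76 at 6 h, 4.05, 4.09 and 4.45 at 48 h, and 3.85, 3.91 and 4.64 in control. CYP71B19 had 5.02, 4.86 and 5.23 at 6 h, 6.63, 6.63 and 7.05 at 48 h, and 6.06, 6.33 and 6.74 in control. In both genes the 6 h arrays lay below all others (CYP71B22 -1.47, SE 0.22, adjusted p = 2.18e-04; CYP71B19 -1.34, SE 0.21, adjusted p = 2.87e-04), whereas the 48 h arrays overlapped the controls.

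CYP71B6, which acts on indole acetonitrile, a product of indole metabolism in crucifers, showed the same course. Its signals were 7.27, 7.18 and 7.18 at 6 h, 9.33, 8.86 and 8.46 at 48 h, and 8.6, 9.0 and 8.11 in control, a fall at 6 h (-1.36, SE 0.25, adjusted p = 9.65e-04) and no called difference at 48 h (0.32, adjusted p = 0.487). CYP71B5 had 6.25, 6.52 and 6.39 at 6 h, 7.47, 7.43 and 7.65 at 48 h, and 7.37, 7.4 and 7.68 in control. CYP71B23 had 6.57, 6.79 and 6.53 at 6 h, 7.87, 7.93 and 7.98 at 48 h, and 7.88, 7.48 and 7.63 in control. CYP71B34 had 6.4, 6.14 and 6.26 at 6 h, 7.1, 7.06 and 7.27 at 48 h, and 7.19, 6.76 and 7.55 in control. Each of these 3 genes was lower at 6 h, with no overlap with control (CYP71B5 -1.1, SE 0.17; CYP71B23 -1.04, SE 0.17; CYP71B34 -0.90, SE 0.20). At 48 h their arrays overlapped the controls, with differences of 0.04, 0.26 and -0.03.

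CYP71B35 and CYP71B26 were lower than control at both times, which the comparisons give from the same control arrays. CYP71B35 had 3.33, 3.38 and 3.52 at 6 h, 3.47, 3.53 and 4.08 at 48 h, and 4.85, 4.6 and 4.62 in control, with differences from control of -1.28, SE 0.19 at 6 h and -1.0, SE 0.19 at 48 h. CYP71B26 had 2.98, 2.75 and 3.2 at 6 h, 3.6, 2.91 and 3.23 at 48 h, and 4.02, 4.08 and 4.51 in control, with -1.23, SE 0.22 at 6 h and -0.95, SE 0.22 at 48 h. The treated arrays of both genes lay below every control array. CYP71B24, a gene of very low signal, had 1.05, 1.06 and 0.69 at 6 h, 1.41, 1.65 and 1.33 at 48 h, and 1.41, 2.15 and 1.48 in control and fell at 6 h (-0.75, SE 0.22, adjusted p = 0.0186). CYP71B21 had 3.93, 4.48 and 3.86 at 6 h, 4.21, 3.41 and 3.91 at 48 h, and 4.58, 4.8 and 4.77 in control. It passed the test at 48 h (-0.87, SE 0.23, adjusted p = 0.0254) and not at 6 h (-0.62, adjusted p = 0.0576), although its groups did not overlap at either time.

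A pair of CYP71B genes was higher than control at 48 h. CYP71B29 had 7.92, 7.68 and 7.58 at 6 h, 8.92, 8.86 and 8.58 at 48 h, and 7.53, 7.43 and 7.3 in control, so that the 48 h arrays lay above all others (1.37, SE 0.17, adjusted p = 2.05e-04). CYP71B28 had 4.32, 4.3 and 4.52 at 6 h, 5.59, 5.64 and 5.21 at 48 h, and 5.01, 4.81 and 4.74 in control, and was above control at 48 h (0.63, SE 0.18, adjusted p = 0.0351) with a 6 h value below control that did not pass the test (-0.47, adjusted p = 0.0637). Counting both directions, 6 of 21 CYP71B genes differed from control at 48 h (28.6%, against 10.6% of all genes), 4 lower (5.22% of all genes) and 2 higher (5.43% of all genes).

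The other 8 CYP71B genes passed the test in neither comparison with control. CYP71B36 had 4.89, 5.36 and 4.73 at 6 h, 4.71, 5.25 and 5.03 at 48 h, and 5.51, 5.95 and 5.36 in control, with differences of -0.61 and -0.61. CYP71B25 had 2.76, 1.82 and 1.91 at 6 h, 2.3, 2.87 and 2.24 at 48 h, and 2.46, 3.17 and 3.25 in control, with -0.80 and -0.49. CYP71B32 had 2.59, 1.92 and 2.36 at 6 h, 3.04, 3.23 and 3.02 at 48 h, and 2.97, 2.47 and 2.24 in control, with -0.27 and 0.54. The arrays of the first of these overlapped control at 6 h only, those of the second at both times and those of the third at 6 h only. CYP71B16 had 2.72, 3.08 and 2.97 at 6 h, 3.02, 3.15 and 3.61 at 48 h, and 2.78, 2.63 and 3.15 in control. CYP71B38 had 2.25, 2.92 and 3.78 at 6 h, 2.68, 3.26 and 3.16 at 48 h, and 3.52, 3.21 and 3.21 in control. CYP71B37 had 1.6, 1.57 and 2.31 at 6 h, 1.68, 1.97 and 1.54 at 48 h, and 2.28, 2.09 and 1.85 in control. The groups of these 3 overlapped throughout. CYP71B31, known from terpene alcohol oxidation in flowers, had 0.86, 1.08 and 1.02 at 6 h, 1.09, 0.91 and 0.97 at 48 h, and 1.23, 1.61 and 0.81 in control. CYP71B30P has the P of pseudogenes in its symbol, although the RefSeq table lists it as protein-coding. Its signals were 1.18, 1.11 and 2.05 at 6 h, 1.64, 1.64 and 1.34 at 48 h, and 1.32, 1.67 and 1.64 in control. Both sat near the bottom of the array's range, where such values compress differences, and showed no called change.

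Over the 21 genes, the median signal per array was 2.98, 3.08 and 3.52 at 6 h, 4.05, 3.53 and 4.08 at 48 h, and 4.58, 4.6 and 4.64 in control. By these medians the controls were the tightest and highest group, and the 6 h arrays the lowest. Such a median follows the genes of middle rank on each array. Gene by gene, the median difference from control was -0.75 at 6 h and -0.03 at 48 h. At 48 h 9 of the 21 differences lay above 0 (43.2% of all genes) and 12 below. For 13 of the 21 genes the 6 h arrays did not overlap the controls (61.9%, against 40.3% of all genes), and for 8 of 21 the 48 h arrays did not (38.1%, against 25.1% of all genes). At 6 h the call of CYP71B24 was lost without 6 h replicate 3 or control replicate 2 (-0.63 to -0.52, adjusted p = 0.0714 to 0.0839). Leaving out 1 array also added calls of lower genes at 6 h. CYP71B21 was called without 6 h replicate 2 (-0.82, adjusted p = 0.0263). CYP71B25 was called without 6 h replicate 1 (-1.1, adjusted p = 0.0123) or control replicate 1 (-1.05, adjusted p = 0.0188). CYP71B36 was called without 6 h replicate 2 (-0.80, adjusted p = 0.0293) or control replicate 3 (-0.74, adjusted p = 0.0360). CYP71B21, CYP71B28 and CYP71B36 were further called at 6 h after renewed quantile normalization (adjusted p = 0.0267, 0.0180 and 0.0278), without low genes (0.0385, 0.0347 and 0.0388) and with each array centred (0.0485, 0.0474 and 0.0462). With centring CYP71B25 was called as well (0.0437), with array weights CYP71B28 (0.0273), and in these groups alone CYP71B21 (0.0437). At 48 h the calls of CYP71B29 and CYP71B35 held without each single array, and those of the other 4 did not, which left 1 lower gene without 48 h replicate 2. They were lost for CYP71B20 without 48 h replicate 2, 48 h replicate 3, control replicate 1 or control replicate 2 (-0.74 to -0.63, adjusted p = 0.0670 to 0.107), and over all entries of the table (0.0534). They were lost for CYP71B21 without 48 h replicate 2, 48 h replicate 3 or control replicate 2 (-0.90 to -0.65, adjusted p = 0.0524 to 0.112), and over all entries of the table (0.0553) and with array weights (0.0643). For CYP71B26 this was so without 48 h replicate 2 (-0.79, adjusted p = 0.0583), and for CYP71B28 without 48 h replicate 1, 48 h replicate 2, control replicate 2 or control replicate 3 (0.55 to 0.61, adjusted p = 0.0729 to 0.125), and over all entries of the table (0.0521), after renewed quantile normalization (0.0620) and in the arrays of these groups alone (0.0840). CYP71B36 was called at 48 h with the replicate number as a block (-0.61, adjusted p = 0.0421 in these groups alone and 0.0341 in all arrays), and likewise at 6 h (-0.61, adjusted p = 0.0356 and 0.0155), where the numbers do not pair the arrays. CYP71B21 was called at 6 h with that block in these groups alone (adjusted p = 0.0438).

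**Figure D2:**
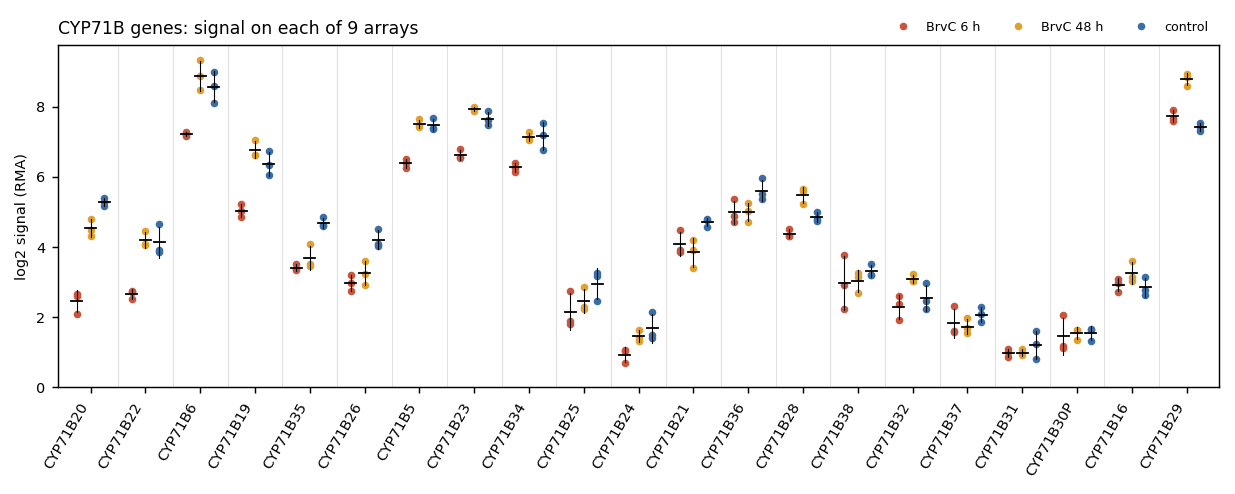
Log2 signal (vertical axis) of the 21 CYP71B genes, ordered by their log2 fold change at 6 h; each point is 1 array, and black marks give the mean ± SD of 3 arrays. From CYP71B20 to CYP71B34 on the left the 6 h arrays sit below every control array, and in CYP71B29 at the right end the 48 h arrays sit above all others.

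Of the remaining P450s, 1 of 4 differed from control, both at 6 h (27.4% of all genes did) and at 48 h (10.6% of all genes). CYP78A9, which is known for promoting the growth of seeds and fruits, had 2.3, 2.61 and 2.37 at 6 h, 2.52, 2.24 and 2.4 at 48 h, and 3.24, 3.62 and 3.42 in control. It was lower at 6 h (-1.0, SE 0.17, adjusted p = 6.84e-04) and at 48 h (-1.04, SE 0.17, adjusted p = 0.00167), with all treated arrays below all controls. CYP79A2, which turns phenylalanine into the oxime of benzylglucosinolate synthesis, had differences of -0.32 at 6 h and -0.42 at 48 h. CYP79C2 of the same family had -0.34 and -0.34, and CYP84A4, an enzyme of the arabidopyrone pathway, -0.02 and -0.31. None of these 3 passed the test.

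Among glutathione transferases, GSTU20 rose at both times and GSTF3 and GSTU18 fell at both, while GSTU15 rose at 48 h. GSTU20, a tau class enzyme that binds the jasmonate-conjugating enzyme JAR1 and is expressed with the genes of aliphatic glucosinolates, had 6.42, 6.43 and 6.53 at 6 h, 5.49, 4.46 and 5.05 at 48 h, and 2.9, 3.37 and 2.82 in control. The 3 groups did not overlap, and GSTU20 was higher than control by 3.43, SE 0.24, adjusted p = 3.90e-07 at 6 h and by 1.97, SE 0.24, adjusted p = 1.68e-04 at 48 h. GSTF3 of the phi class had 4.9, 4.69 and 4.95 at 6 h, 6.44, 6.33 and 6.67 at 48 h, and 6.82, 7.68 and 7.3 in control. It fell at 6 h (-2.42, SE 0.21, adjusted p = 2.56e-06) and was below control by less at 48 h (-0.79, SE 0.21, adjusted p = 0.0314), again with no overlap between the groups. GSTU18 had 2.98, 3.2 and 3.15 at 6 h, 2.58, 2.48 and 3.6 at 48 h, and 3.81, 4.11 and 4.6 in control. Its fall was -1.06, SE 0.28, adjusted p = 0.0114 at 6 h and -1.28, SE 0.28, adjusted p = 0.00935 at 48 h, with all treated arrays below all controls. GSTU15 had 2.23, 2.15 and 1.85 at 6 h, 3.89, 3.95 and 3.4 at 48 h, and 1.98, 3.09 and 1.67 in control. It was above control at 48 h (1.5, SE 0.30, adjusted p = 0.00615) and not at 6 h (-0.17, adjusted p = 0.726).

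The other 10 glutathione transferases passed the test in neither comparison with control. GSTU27 had 5.43, 5.01 and 5.42 at 6 h, 5.44, 5.3 and 4.77 at 48 h, and 4.96, 4.85 and 3.93 in control, with differences of 0.71, adjusted p = 0.0699 at 6 h and 0.59, adjusted p = 0.204 at 48 h. Its differences depended on control replicate 3, without which GSTU27 differed by 0.38 at 6 h (adjusted p = 0.235) and 0.27 at 48 h (adjusted p = 0.477). It was called at 6 h without control replicate 1 (0.90, adjusted p = 0.0412) or with the replicate block in all arrays (adjusted p = 0.0336), and at 48 h with the replicate block in these groups alone (0.59, adjusted p = 0.0441). GSTU16 had 3.94, 3.72 and 3.78 at 6 h, 4.53, 4.81 and 4.01 at 48 h, and 4.04, 3.89 and 4.07 in control. GSTU28 had 3.04, 2.9 and 2.77 at 6 h, 3.51, 3.71 and 3.38 at 48 h, and 3.41, 2.88 and 3.27 in control. Both overlapped control at both times, and GSTU16, at 0.45 with all arrays, differed by 0.67 at 48 h without 48 h replicate 3 (adjusted p = 0.0472) and by 0.26 without 48 h replicate 2 (adjusted p = 0.491). GSTL3, of a class that acts on oxidized thiols with a cysteine, had 10.30, 10.19 and 10.01 at 6 h, 10.38, 10.43 and 10.47 at 48 h, and 10.22, 9.99 and 10.25 in control, which differed from control by 0.01 and 0.28. The phi class GSTF4 differed by -0.44 and 0.39, and its control arrays ran from 2.45 to 4.2. GSTU25, known for conjugating the explosive trinitrotoluene, differed by -0.13 and -0.13. GSTU21, GSTU22, GSTU23 and GSTU26 had differences of 0.35, -0.02, -0.30 and -0.39 at 6 h and 0.38, 0.05, 0.06 and -0.49 at 48 h. The GSTF3 call at 48 h was lost without 48 h replicate 1, 48 h replicate 2, control replicate 2 or control replicate 3 (-0.77 to -0.58, adjusted p = 0.0537 to 0.113), and over all entries of the table (0.0608), with array weights (0.0631) and in the arrays of these groups alone (0.0757). That of GSTU18 at 48 h was lost without 48 h replicate 2 (-1.08, adjusted p = 0.0503), so that no glutathione transferase was called lower without that array.

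**Figure D3:**
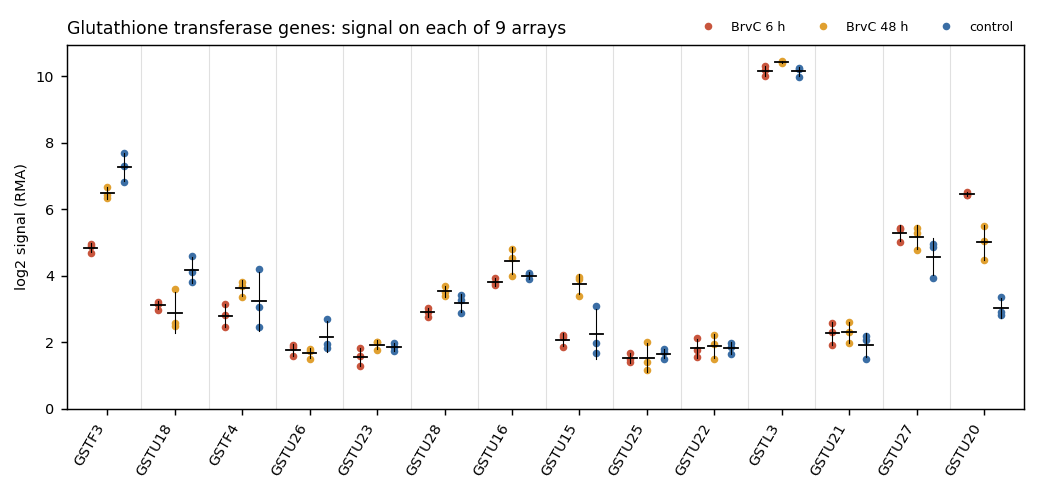
Log2 signal (vertical axis) of the 14 glutathione transferase genes, ordered by their log2 fold change at 6 h; each point is 1 array, and black marks give the mean ± SD of 3 arrays. GSTF3 and GSTU18 at the left have the controls on top, GSTU20 at the right has the 6 h arrays on top, and GSTU15 stands out for its 48 h arrays.

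Among UGTs that act on hormones and immune signals, UGT76C2 rose at 6 h and UGT71C5 rose at 48 h. UGT76C2, which attaches glucose to a nitrogen of cytokinins and thereby inactivates them, had 3.85, 3.82 and 3.57 at 6 h, 2.29, 2.33 and 2.03 at 48 h, and 2.12, 2.44 and 2.11 in control. The 6 h arrays lay above all others (1.52, SE 0.17, adjusted p = 2.36e-05), and 48 h did not differ from control by the test (-0.01, adjusted p = 0.986). Its neighbour UGT76C1, of the same activity, differed by -0.13 at 6 h and 0.19 at 48 h. UGT71C5, which glucosylates abscisic acid, had 5.19, 5.33 and 5.25 at 6 h, 5.87, 5.35 and 5.91 at 48 h, and 5.09, 5.14 and 5.09 in control and passed the test at 48 h (0.60, SE 0.18, adjusted p = 0.0482). UGT71B6, also an abscisic acid glucosyltransferase, differed by 0.08 and 0.37 in the probe set used and by -0.13 and -0.29 in a second one. UGT71B8 of the same subfamily fell at 6 h (-0.59, SE 0.17, adjusted p = 0.0221). The signal of UGT71B8 was low, with means of 1.58 at 6 h and 2.17 in control. The auxin glucosyltransferase UGT84B1 (-0.09 and -0.27) and the salicylic acid glucosyltransferase UGT74F1 (0.02 and -0.07) did not pass the test. UGT76B1, which glucosylates the immune signals isoleucic acid and salicylic acid, had 5.31, 5.22 and 5.68 at 6 h, 4.68, 4.95 and 4.47 at 48 h, and 4.6, 5.29 and 2.99 in control. Its groups overlapped and it missed the test at 6 h (1.11, SE 0.42, adjusted p = 0.0672), and the value depended on the controls. Without control replicate 3 UGT76B1 differed by 0.46 (adjusted p = 0.181), and without control replicate 2 by 1.61 (adjusted p = 0.00657). It was also called with array weights (adjusted p = 0.0423) and with the replicate block in all arrays (adjusted p = 0.0417). UGT74D1, an auxin glucosyltransferase, differed by -0.12 and -0.06 in the probe set used, while a second probe set for it showed a difference of -1.58 at 6 h (adjusted p = 0.00205 in limma with the lowest-mean entry per gene), so that its change is uncertain.

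Among UGTs of phenylpropanoids and flavonoids, UGT84A3 and UGT73C6 rose at 6 h. UGT84A3, which makes glucose esters of hydroxycinnamic acids such as sinapic acid, had 6.06, 6.14 and 6.19 at 6 h, 5.7, 5.57 and 5.98 at 48 h, and 5.04, 5.28 and 5.69 in control. It was higher at 6 h (0.79, SE 0.19, adjusted p = 0.00766) and not called at 48 h (0.41, adjusted p = 0.217). UGT73C6, a flavonol glucosyltransferase that also acts on brassinosteroids, had 5.57, 5.35 and 5.29 at 6 h, 4.27, 4.48 and 4.5 at 48 h, and 4.11, 3.42 and 4.51 in control. It rose at 6 h (1.39, SE 0.24, adjusted p = 6.07e-04), with 6 h arrays above all controls. Its second probe set had means of 2.1 at 6 h and 1.83 in control and a difference of 0.27 that did not pass the test (adjusted p = 0.503). The flavonol glycosyltransferases UGT78D1, UGT78D2 and UGT78D3 differed by -0.77, -0.43 and -0.51 at 6 h, all below 0 and none past the test, and by -0.24, -0.40 and -0.60 at 48 h. UGT78D1 was called at 6 h without control replicate 1 (-1.07, adjusted p = 0.0126) and with the replicate block (adjusted p = 0.0325 in these groups alone and 0.0138 in all arrays), and differed by -0.39 without control replicate 3 (adjusted p = 0.207). The UGT78D3 value at 48 h was called with the replicate block in all arrays (adjusted p = 0.0464). UGT72E1, UGT72E2 and UGT72E3, which glucosylate monolignols, the building blocks of lignin, differed by 0.28, -0.10 and 0.12 at 6 h and did not pass the test.

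UGT74B1, the glucosyltransferase of the glucosinolate core pathway, was higher at both times. It had 6.05, 6.16 and 6.05 at 6 h, 6.33, 6.43 and 5.96 at 48 h, and 5.42, 5.52 and 5.5 in control. The treated arrays lay above all controls, by 0.61, SE 0.17, adjusted p = 0.0160 at 6 h and 0.76, SE 0.17, adjusted p = 0.0106 at 48 h. UGT74B1 and GSTU20 were the members above control in both comparisons, which share the control arrays.

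Of the 5 UGT73B genes, a group linked to defence and to foreign compounds, 2 fell at 6 h (13.2% of all genes fell) and 2 rose at 48 h (5.43% of all genes rose). UGT73B2, a flavonol glucosyltransferase, had 5.23, 5.28 and 5.28 at 6 h, 6.69, 6.7 and 7.4 at 48 h, and 5.51, 5.49 and 6.3 in control. UGT73B5 had 6.0, 5.25 and 6.08 at 6 h, 6.55, 6.76 and 7.26 at 48 h, and 5.3, 6.2 and 6.18 in control. UGT73B3 had 3.39, 3.19 and 3.37 at 6 h, 4.66, 5.2 and 3.89 at 48 h, and 3.68, 3.46 and 4.04 in control. UGT73B2 rose at 48 h (1.16, SE 0.25, adjusted p = 0.00820), as UGT73B5 did (0.97, SE 0.29, adjusted p = 0.0499), and UGT73B3 did not pass the test (0.86, adjusted p = 0.0663) unless 48 h replicate 3 was left out (1.2, adjusted p = 0.00611) or control replicate 3 (1.02, adjusted p = 0.0379), or array weights were used (adjusted p = 0.0417). Without 48 h replicate 2 UGT73B3 differed by 0.55 (adjusted p = 0.237). UGT73B1 had 5.51, 5.03 and 5.33 at 6 h, 6.29, 6.16 and 6.69 at 48 h, and 6.24, 6.3 and 6.31 in control and fell at 6 h (-0.99, SE 0.19, adjusted p = 0.00137). UGT73B4, which can glucosylate trinitrotoluene products, averaged 3.23 ± 0.11 at 6 h, 4.0 ± 0.29 at 48 h and 3.93 ± 0.22 in control (SD, n = 3 each), a fall at 6 h (-0.71, SE 0.19, adjusted p = 0.0134). UGT73C1, which shares that activity, differed by -0.09 and -0.37 and did not pass the test. Over the 5 UGT73B genes, all 5 differences were below 0 at 6 h, from -0.99 to -0.12 (below 0 in 59.7% of all genes), and all 5 were above 0 at 48 h, from 0.07 to 1.16 (above 0 in 43.2% of all genes).

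Further UGTs past the test came from groups with less settled substrates. UGT71B5 had 5.43, 4.97 and 4.97 at 6 h, 6.9, 6.92 and 7.89 at 48 h, and 6.17, 7.03 and 7.05 in control. UGT85A5 had 3.96, 4.08 and 4.15 at 6 h, 5.08, 5.31 and 5.21 at 48 h, and 5.36, 5.13 and 5.47 in control. UGT85A2 had 8.67, 8.69 and 8.72 at 6 h, 9.99, 9.39 and 9.61 at 48 h, and 9.24, 9.65 and 9.59 in control. Each fell at 6 h with no overlap with control (UGT71B5 -1.63, SE 0.30, adjusted p = 9.55e-04; UGT85A5 -1.26, SE 0.16, adjusted p = 6.94e-05; UGT85A2 -0.80, SE 0.19, adjusted p = 0.00634), and at 48 h their arrays overlapped the controls. UGT72B3 had 5.54, 5.58 and 5.4 at 6 h, 4.26, 4.85 and 4.33 at 48 h, and 4.99, 4.17 and 4.18 in control, and rose at 6 h (1.06, SE 0.24, adjusted p = 0.00405) with 48 h arrays that overlapped the controls. UGT71B1 had 4.88, 4.7 and 5.29 at 6 h, 4.55, 4.7 and 4.71 at 48 h, and 4.21, 4.02 and 4.58 in control and rose at 6 h (0.69, SE 0.20, adjusted p = 0.0205). UGT71C4 had 6.9, 7.06 and 6.96 at 6 h, 6.96, 6.98 and 6.9 at 48 h, and 7.43, 7.52 and 7.43 in control, a small fall of -0.49, SE 0.15, adjusted p = 0.0274 at 6 h and -0.51, SE 0.15, adjusted p = 0.0470 at 48 h. In all, 35 of 51 UGTs passed the test in neither comparison with control. The share of UGTs changed was 25.5% at 6 h (27.4% of all genes) and 9.8% at 48 h (10.6% of all genes). UGT85A4, among the 35, differed by -0.04 at 6 h in the probe set used. A second probe set for it showed -0.87 (adjusted p = 0.00115 in limma with the lowest-mean entry per gene), so that its change is uncertain. For 22 of the 51 UGTs the 6 h arrays did not overlap the controls (43.1%, against 40.3% of all genes), and for 14 the 48 h arrays did not (27.5%, against 25.1% of all genes).

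Several UGT calls depended on single arrays or settings. At 6 h the call of UGT71B1 was lost without 6 h replicate 3, control replicate 1 or control replicate 2 (0.52 to 0.66, adjusted p = 0.0570 to 0.100). UGT71B8 lost it without 6 h replicate 1, 6 h replicate 2 or control replicate 2 (-0.57 to -0.55, adjusted p = 0.0580 to 0.0730), and after renewed quantile normalization (0.0712). The UGT71C4 difference was not called without 6 h replicate 1, 6 h replicate 2, 6 h replicate 3 or control replicate 2 (-0.53 to -0.45, adjusted p = 0.0526 to 0.103), and with the replicate block in these groups alone (0.0877). For UGT73B4 this held without 6 h replicate 3 or control replicate 2 (-0.65 to -0.58, adjusted p = 0.0527 to 0.0540), and for UGT74B1 without 6 h replicate 2 (0.57, adjusted p = 0.0616). Other UGTs were called at 6 h when 1 array was left out. They were UGT71D1 without 6 h replicate 2 (0.74, adjusted p = 0.0495), UGT85A3 without control replicate 1 (-0.78, adjusted p = 0.0201), and UGT73D1, UGT76D1 and UGT87A2 without control replicate 3 (-0.68, -1.0 and -0.56, adjusted p = 0.0436, 0.0113 and 0.0422). UGT88A1 missed the test at 6 h with all arrays (-0.55, adjusted p = 0.0509). It was called after renewed quantile normalization (adjusted p = 0.0216), with array weights (0.0282) and in the arrays of these groups alone (0.0432). Without control replicate 2, 4 UGTs in place of 7 were lower at 6 h. At 48 h UGT73B2 kept its call in all alternatives run, and the calls of the others did not hold. UGT73B5 lost it without 48 h replicate 1, 48 h replicate 2, 48 h replicate 3, control replicate 1 or control replicate 2 (0.67 to 1.12, adjusted p = 0.0513 to 0.177). The same held over all entries of the table (0.0988), after renewed quantile normalization (0.0675) and in the arrays of these groups alone (0.0658). With the lowest-mean entry per gene its adjusted p was 0.0504, although UGT73B5 has 1 entry and its own values stayed the same. UGT71C5 was not called without 48 h replicate 1, 48 h replicate 3, control replicate 1, control replicate 2 or control replicate 3 (0.50 to 0.62, adjusted p = 0.0729 to 0.166), and over all entries of the table (0.0670), after renewed quantile normalization (0.0829), with an intensity trend (0.0528), with array weights (0.0659), in the arrays of these groups alone (0.111) and with the replicate block in these groups alone (0.0556). The UGT71C4 call at 48 h ended without 48 h replicate 1, 48 h replicate 2, 48 h replicate 3, control replicate 1, control replicate 2 or control replicate 3 (-0.53 to -0.48, adjusted p = 0.0604 to 0.119), and with array weights (0.0731), in the arrays of these groups alone (0.111), with the replicate block in these groups alone (0.0555) and with the replicate block in all arrays (0.0500), and that of UGT74B1 without 48 h replicate 2 (0.66, adjusted p = 0.0505). UGT73C2 was called lower at 48 h without control replicate 3 (-0.76, adjusted p = 0.0481). The UGTs called higher at 48 h numbered 2 in place of 4 without 48 h replicate 1, 48 h replicate 2, control replicate 1 or control replicate 2.

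**Figure D4:**
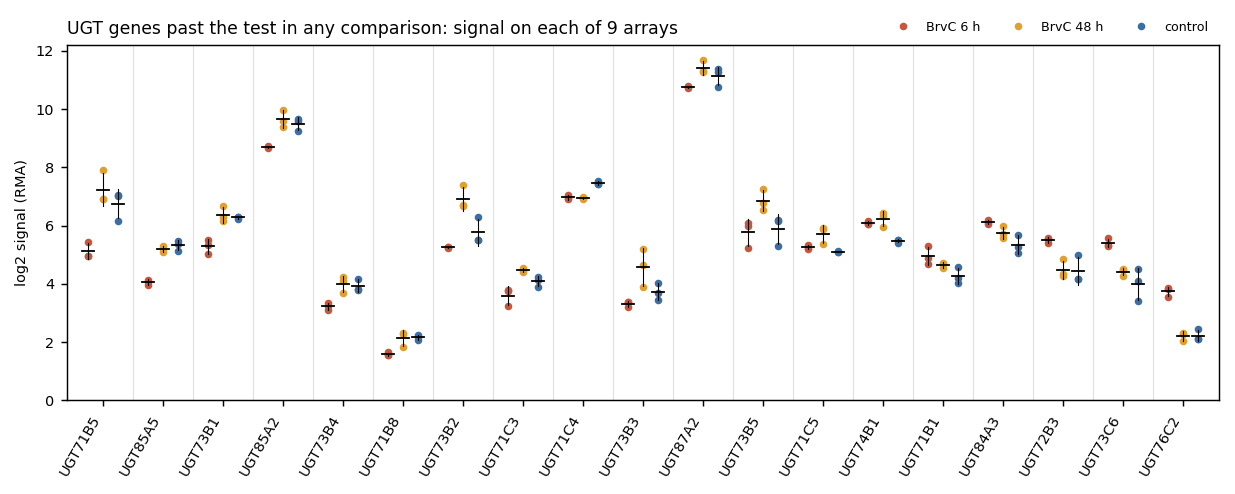
Log2 signal (vertical axis) of the UGT genes past the test in any of the 3 comparisons, ordered by their log2 fold change at 6 h; each point is 1 array, and black marks give the mean ± SD of 3 arrays. UGT71B5, UGT85A5, UGT73B1 and UGT85A2 at the left have low 6 h arrays, UGT76C2 at the right has high 6 h arrays, and UGT73B2 has high 48 h arrays.

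Set against each other, the 48 h leaves had higher signals than the 6 h leaves for 25 members and lower signals for 4 (32.2% changed, against 20.3% of all genes; 9.62% of all genes were higher and 10.7% lower). At least 2-fold higher were 16 (4.44% of all genes) and at least 2-fold lower 3 (5.02% of all genes). Higher at 48 h were 10 of 21 CYP71B genes and no other P450, 4 glutathione transferases and 11 UGTs, and lower were GSTU20 and the 3 UGTs UGT72B3, UGT73C6 and UGT76C2. UGT71B5 had 6.9, 6.92 and 7.89 at 48 h, against 5.43, 4.97 and 4.97 at 6 h, the largest difference upward (2.11, SE 0.30, adjusted p = 1.85e-04). CYP71B20 had 4.81, 4.49 and 4.32 at 48 h, against 2.67, 2.6 and 2.1 at 6 h (2.09, SE 0.20, adjusted p = 7.48e-06). In both, the times did not overlap. All 5 UGT73B genes were higher at 48 h, with differences of 0.77 to 1.67. UGT73B2 had 6.69, 6.7 and 7.4 at 48 h, against 5.23, 5.28 and 5.28 at 6 h (1.67, SE 0.25, adjusted p = 2.85e-04). UGT73B3 had 4.66, 5.2 and 3.89 at 48 h, against 3.39, 3.19 and 3.37 at 6 h (1.27, SE 0.28, adjusted p = 0.00485). The time points did not overlap for any of the 5. GSTU15 was higher at 48 h by 1.67, SE 0.30, adjusted p = 0.00145 and GSTF3 by 1.64, SE 0.21, adjusted p = 1.06e-04. UGT76C2 was lower at 48 h (-1.53, SE 0.17, adjusted p = 3.63e-05), with 2.29, 2.33 and 2.03 at 48 h, against 3.85, 3.82 and 3.57 at 6 h. For 43 of 90 members the times did not overlap (47.8%, against 37.3% of all genes). This comparison uses the same treated arrays as the 2 above and holds no control, so that hours with BrvC and hours in the dark cannot be told apart in it.

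Calls between the times were lost without single arrays for 7 members, and 21 of the 29 held in all alternatives in which the gene was tested. GSTU16 lost its call without 6 h replicate 1, 6 h replicate 2, 6 h replicate 3, 48 h replicate 1 or 48 h replicate 2 (0.45 to 0.70, adjusted p = 0.0722 to 0.170), and over all entries of the table (0.0761) and with an intensity trend (0.0517). GSTU28 lost it without 6 h replicate 2, 6 h replicate 3, 48 h replicate 1 or 48 h replicate 2 (0.54 to 0.64, adjusted p = 0.0662 to 0.105), and over all entries of the table (0.0512). CYP71B32 was not called without 6 h replicate 2 or 48 h replicate 2 (0.62 to 0.74, adjusted p = 0.0726 to 0.104). UGT71B8 was not called without 6 h replicate 1, 6 h replicate 2, 6 h replicate 3, 48 h replicate 2 or 48 h replicate 3 (0.48 to 0.59, adjusted p = 0.0717 to 0.128), and over all entries of the table (0.0570), and UGT73B4 without 48 h replicate 2 (0.66, adjusted p = 0.0510). For UGT73B5 this was so without 6 h replicate 2 or 48 h replicate 3 (0.82 to 0.88, adjusted p = 0.0734 to 0.0879), and over all entries of the table (0.0516), and for UGT87A2, known for its part in flowering time, without 6 h replicate 1, 6 h replicate 2, 6 h replicate 3 or 48 h replicate 1 (0.53 to 0.68, adjusted p = 0.0727 to 0.119), and over all entries of the table (0.0549) and after renewed quantile normalization (0.121). The difference of UGT73C6 was lost with the lowest-mean entry per gene (0.647). Calls were added for UGT71C2 and UGT88A1 without 48 h replicate 3 (0.66 and 0.76, adjusted p = 0.0459 and 0.0162) and for UGT71C5 without 48 h replicate 2 (0.63, adjusted p = 0.0257). UGT71C2 and UGT88A1 were also called after renewed quantile normalization (adjusted p = 0.0446 and 0.0387), with array weights (0.0229 and 0.0160) and in these groups alone (0.0437 and 0.0441). GSTF4 (0.83, adjusted p = 0.119 with all arrays) was called with array weights (0.0244) and in these groups alone (0.0124). In these groups alone CYP71B24 (0.0439) and UGT76B1 (0.0184) were called as well. Without 6 h replicate 2, 6 h replicate 3, 48 h replicate 1 or 48 h replicate 2, the glutathione transferases higher at 48 h numbered 2 in place of 4.

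By the order of protein-coding genes in the RefSeq table of TAIR10.1, 58 of 90 members lay in 20 runs in which successive members had at most 1 gene between them. In the run CYP71B16, CYP71B19, CYP71B20, CYP71B21, CYP71B22, CYP71B23 and CYP71B24, 5 of 7 fell at 6 h (against 13.2% of all genes) and the differences ranged from -2.83 to 0.07. In the run CYP71B25, CYP71B26, CYP71B34, CYP71B35, CYP71B36 and CYP71B37, 3 of 6 fell at 6 h (against the same 13.2%), with differences from -1.28 to -0.25. CYP71B28 and CYP71B29 are next to each other and were the CYP71B genes above control at 48 h. In the run GSTU23, GSTU22, GSTU21 and GSTU20, GSTU20 rose by 3.43 at 6 h and the other 3 lay between -0.30 and 0.35 with no call. UGT76C2 rose by 1.52 at 6 h beside UGT76C1 at -0.13. Neighbouring pairs were counted between tested genes that follow each other with at most 1 gene between them. Members of a run with another tested gene between them thus form no pair. Of 34 such pairs of members, 6 had both genes called in the same direction at 6 h and 0 in opposite directions. In 15 pairs 1 gene was called, and in 13 none. Over all 13710 neighbouring pairs of tested genes these numbers were 632, 510, 5159 and 7409. Whether signal of 1 gene reaches the probe sets of its near copies was not tested.

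**Figure D5:**
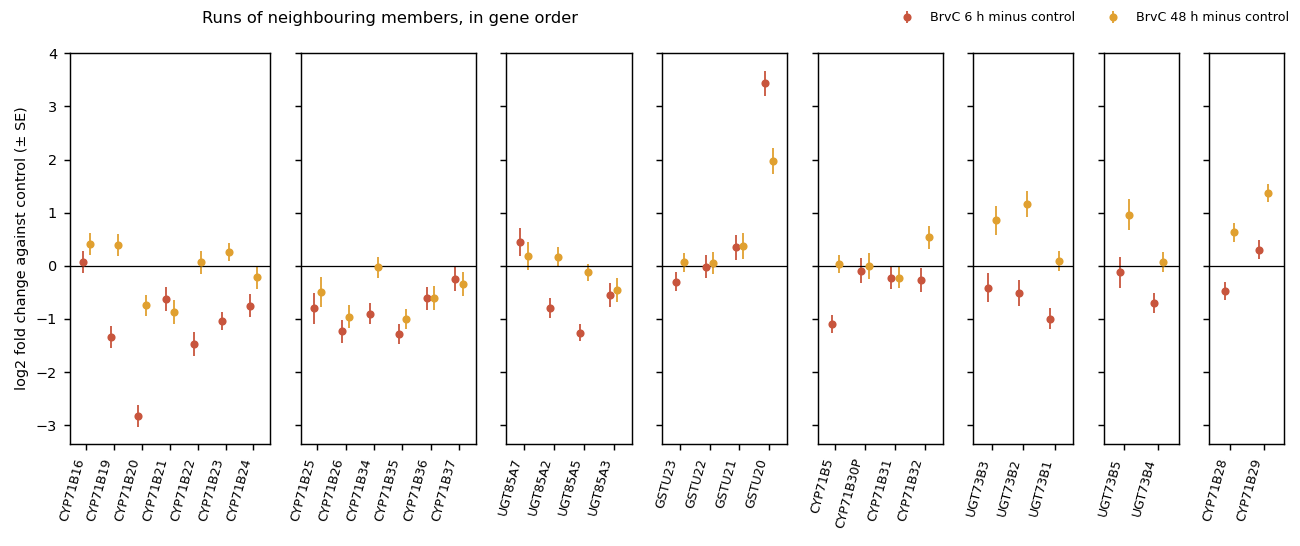
Log2 fold changes against control (vertical axis, ± SE from limma) for 8 runs of neighbouring members, each panel in gene order, at 6 h and 48 h. In the run that ends with GSTU20 that gene alone stands above its neighbours, and in the run from CYP71B16 to CYP71B24 the 6 h values spread from 0.07 down to -2.83.

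Other genes of the pathway came from lists of 9 to 30 names each, aliases included, of which few were measured. None of 9 P450 redox partner names was among them. Glutathione reductase GR1, which keeps glutathione reduced, had 9.04, 9.06 and 8.71 at 6 h, 10.14, 9.93 and 9.88 at 48 h, and 9.97, 9.89 and 9.65 in control. It fell at 6 h (-0.90, SE 0.18, adjusted p = 0.00157) and overlapped the controls at 48 h, whereas GR, the organellar reductase, did not pass the test (-0.10 and -0.20). DTX3, an efflux carrier gene with a locus name alone in the gene table (AT2G04050), had 3.38, 3.72 and 3.18 at 6 h, 5.28, 4.98 and 4.91 at 48 h, and 3.59, 3.64 and 4.18 in control, and was above control at 48 h (1.26, SE 0.21, adjusted p = 0.00166) but not at 6 h (-0.38, adjusted p = 0.216). Of 4 measured regulators and reductases BGLU42, a beta-glucosidase, rose at 6 h (1.19, SE 0.25) and AOR, an alkenal reductase, fell at 6 h (-0.84, SE 0.22) and at 48 h (-1.07, SE 0.22), while AER and NQR passed neither test. Both measured glucosinolate transporters rose at 6 h (GTR1 1.16, SE 0.22; GTR2 0.82, SE 0.20), and GTR2 also at 48 h (1.01, SE 0.20). Of the phenylpropanoid genes, DFR of anthocyanin synthesis rose at 6 h (0.67, SE 0.18) and HCT of lignin synthesis at 48 h (0.67, SE 0.19).

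The genes whose signals most resembled the CYP71B median over the 9 arrays were AT5G10770, AT3G15900, AT5G18636, AT5G64230 and AT5G45360, with Pearson correlations of 0.972, 0.971, 0.966, 0.966 and 0.964. They were picked from all 16550 genes for this likeness over 3 groups of 3 arrays, and none was a member. Their differences from control ran from -2.13 to -1.26 at 6 h and from -1.01 to -0.56 at 48 h. The median difference of the CYP71B genes themselves was -0.75 at 6 h and -0.03 at 48 h. These 5 genes thus resemble the per-array median and not the course of most CYP71B genes at 48 h.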

How the data were processed

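Tools listed without version or role in the submitters' processing notes are RMA, oligo and limma. The deposited values, 0.298 to 13.9, were read as log2 RMA signals per probe set. RMA corrects background, normalizes by quantiles and summarizes probes, which compresses differences of low signals. The genome build and array annotation are not given in the sources used here. The table held 38408 entries, of which 16722 were paired with 1 gene by the platform annotation. Symbols were updated through RefSeq TAIR10.1, which changed none of the members' symbols. The entry with the highest mean was kept per gene, which left 16550 genes and 90 members (95 entries, with 5 members having several). Of these, 42 had a mean at or above the median of all entries (4.0), the alternative filter, and no filter was used for the results.

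limma 3.58.1 in R 4.3.3 fitted 1 mean per group to all 9 arrays (6 residual and 7.04 prior degrees of freedom), with Benjamini-Hochberg adjustment over 16550 genes, two-sided, at 0.05. The fit was tested on simulated data. With 3 arrays in each group, precision is limited by their small number. Every CYP71B gene, every glutathione transferase called in any comparison, and the 5 largest rises and falls of the other members per comparison with control (3 and 3 between the times) are given array by array. Other members are named by their known roles, a choice made after their values were seen. The members and lists were chosen with earlier results of these data known. Gene list names were matched by symbol or synonym, with 3 set by locus, and CHI was left out, since the gene of that symbol is a chitinase. The groups carry the same replicate numbers, and deviations of arrays with the same number correlated at 0.302, 0.242 and 0.539 between 48 h and control, at 0.034, -0.032 and 0.012 between 6 h and control and at 0.102, -0.051 and -0.012 between 48 h and 6 h. By the rule that every correlation be over 0.1, the numbers pair 48 h and control only, as a property of the data. Alternatives were other entries, filters, scalings, variance models, blocks, thresholds and memberships, and leaving out each array.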

Additional observations from a re-analysis of the deposited data

Results flagged for a closer look

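The effect against control differed between 48 h and 6 h for 29 of 90 members (32.2%, against 20.3% of all genes). Calls were made by limma's test of that difference at an adjusted p of 0.05. The values below are the log2 effect at 48 h minus that at 6 h, which equals the difference of the treated groups, since the control arrays cancel. Among CYP71B genes it was 2.09 for CYP71B20, 1.73 for CYP71B19, 1.67 for CYP71B6, 1.53 for CYP71B22 and 1.3 for CYP71B23. It was 1.13 for CYP71B5, 1.1 for CYP71B28, 1.06 for CYP71B29, 0.87 for CYP71B34 and 0.80 for CYP71B32. For glutathione transferases the difference was 1.67 for GSTU15, 1.64 for GSTF3, 0.63 for GSTU16, 0.63 for GSTU28 and -1.46 for GSTU20. In the UGT73B group UGT73B2 had 1.67, UGT73B3 1.27, UGT73B1 1.09, UGT73B5 1.08 and UGT73B4 0.77. Other UGTs with a positive difference were UGT71B5 (2.11), UGT85A5 (1.14), UGT85A2 (0.97), UGT71C3 (0.89), UGT87A2 (0.66) and UGT71B8 (0.56). The difference was negative for UGT76C2 (-1.53), UGT72B3 (-1.03) and UGT73C6 (-0.99). No member was called in opposite directions against control at the 2 times.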

How the results depend on the processing

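No member changed sign in a called difference under any alternative in which it was tested. In those alternatives 20 of 27 calls at 6 h, 6 of 16 at 48 h and 21 of 29 between the times held. Only 42 of 90 members passed the filter on low genes, so that calls of the others could not be lost in that setting. Members higher and lower at 6 h numbered 7 and 20, and 4 and 12 with at least a 2-fold change. At 48 h the 8 higher members became 5 over all entries, after renewed quantile normalization and in the arrays of these groups alone, and 4 at an adjusted p of 0.01 or with at least a 2-fold change. The 8 lower members became 5 over all entries and with array weights. They became 3 at an adjusted p of 0.01 and 2 with at least a 2-fold change. Without low genes 4 were counted, since the filter removed GSTU18, CYP71B26, CYP71B35 and CYP78A9, whose means lay below 4.0. Between the times 25 higher members became 16 with at least a 2-fold change. Leaving out each array gave 6 to 7 higher and 16 to 24 lower members at 6 h, 5 to 8 and 2 to 7 at 48 h, and 19 to 25 and 4 to 4 between the times. With the replicate block in all arrays, 10 were higher and 25 lower at 6 h, and 8 and 9 at 48 h, and 27 and 4 between the times, and the UGTs lower at 6 h became 11 in place of 7; in the 2 groups compared alone, the numbers were 7 and 23, 8 and 8, and 31 and 5. At 48 h, where the numbers pair the arrays, the block changed no call of a member beyond those of UGT71C4, UGT71C5, GSTU27, CYP71B36 and UGT78D3. Platform symbols gave the same 90 members, and 4 more by synonym added 1 lower gene at 6 h and 1 higher between the times. Apart from genes that the filter on low genes removed, the cause of these changes was not tested.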
